A study of Mus musculus with 2 samples.

Results

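Phase II conjugation enzymes attach a water-soluble group to drugs, hormones, bilirubin and bile acids. The genes described here are those of the 3 large families of these enzymes, the UDP-glucuronosyltransferases (UGT), the cytosolic sulfotransferases (SULT) and the soluble glutathione transferases (GST). They were taken by gene symbol alone: every protein-coding gene of the Ugt1a, Ugt2a, Ugt2b and Ugt3a groups, every Sult gene, and the alpha, kappa, mu, omega, pi, theta and zeta classes of Gst genes. The rule found 64 genes, of which 63 had a row in the gene tables, out of 21474 protein-coding genes measured: 20 UGT, 21 SULT and 22 GST genes. Ugt2a1 had no row of its own, and its transcript was listed under Ugt2a2. The rule uses no measured value.

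The study profiled RNA from the livers of 2 newborn B6NCrl mice, an inbred strain of the C57BL/6N line, at postnatal day 0. Each pup gave 1 liver and 1 library, and the labels trace both pups to a single pregnancy, so the animals were littermates and formed 1 untreated group. Their sex was not collected. Each library took 10 ng of RNA without its short fraction, and ERCC spike-in RNAs were added. They held 42124582 expected counts in pup 1 and 41443673 in pup 2. Levels are in TPM (transcript abundance from reads, corrected for gene length and scaled to a total of 1000000), which allows comparison between genes. With 1 group there was no contrast of conditions, and an exact sign permutation over 2 livers cannot give a p under 0.5, so values are described and no p is given.

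All 8 hepatocyte markers checked were detected. The tissue also held blood-forming cells, and the 6 erythroid markers summed to 36283 TPM in pup 1 and 38852 in pup 2. Markers of skeletal muscle and pancreas were higher in pup 2: 10 skeletal muscle markers summed to 58.6 TPM in pup 1 and 870.6 in pup 2, and 10 pancreas markers to 5.48 and 128.6 TPM. All 20 of these muscle and pancreas genes were at least 2-fold higher in pup 2, against 0.566% of 12711 Ensembl genes of mean TPM 1 or more. The lists were chosen with earlier results of these data known, so this count is a description and no test. The 6 intestine and stomach markers summed to 56.1 and 59.2 TPM and the 6 adrenal and kidney markers to 0.7 and 0.66 TPM. Of the intestine and stomach markers 2 reached a mean of 1 TPM, the minimum for a 2-fold call, and neither was 2-fold apart. None of the adrenal and kidney markers reached that minimum, so none could be called.

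UGT enzymes sit in the membrane of the endoplasmic reticulum and transfer glucuronic acid from UDP-glucuronic acid. SULT enzymes are cytosolic and take sulfate from PAPS (3'-phosphoadenosine 5'-phosphosulfate). GST enzymes join glutathione to reactive compounds, and several also act as isomerases, reductases or binding proteins. In rodents many of these genes lie in tandem clusters of similar copies, and their liver levels differ with age, hormones and, for a number of them, sex.

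Because the copies are alike, the sequences themselves set how well reads can be told apart. The Ugt1a genes each have a first exon of their own and share the remaining exons. The 4 detected Ugt1a genes are shown here around that junction, 60 bases of the leading transcript on the plus strand of chromosome 1, from the GENCODE M21 transcripts of GRCm38. Capitals mark the first 30 bases common to all 9 Ugt1a genes.
Ugt1a1: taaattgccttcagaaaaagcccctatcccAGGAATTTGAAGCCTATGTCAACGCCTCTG
Ugt1a6a: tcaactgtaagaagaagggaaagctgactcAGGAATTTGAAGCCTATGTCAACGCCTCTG
Ugt1a6b: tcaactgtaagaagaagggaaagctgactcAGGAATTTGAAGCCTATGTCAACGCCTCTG
Ugt1a7c: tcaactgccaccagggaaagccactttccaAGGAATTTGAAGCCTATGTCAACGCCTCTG
Ugt1a6a and Ugt1a6b were the same on both sides of the junction in this window. From the junction on, 1313 or 1314 bases were identical between Ugt1a1 and each other Ugt1a gene, or 59.0% to 59.1% of the Ugt1a1 transcript.

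The pi class genes of chromosome 19 form a second set of copies. Coding bases 34 to 93 are shown, again from the M21 transcripts, with capitals where the 3 genes are not all alike.
Gstp1: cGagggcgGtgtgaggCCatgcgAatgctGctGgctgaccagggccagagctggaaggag
Gstp2: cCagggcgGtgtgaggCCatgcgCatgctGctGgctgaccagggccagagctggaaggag
Gstp3: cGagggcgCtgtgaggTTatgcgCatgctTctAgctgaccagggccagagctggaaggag
Gstp1 and Gstp2 differed at 2 of these 60 bases and at 12 of 630 coding bases in all, a coding identity of 98.1%. Gstp3 differed from Gstp1 at 6 of the 60.

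The steroid and bile acid sulfotransferase genes of chromosome 7 form the third set. Coding bases 202 to 261 of Sult2a1 are shown with the aligned bases of Sult2a2 and Sult2a5, capitals again marking positions that differ.
Sult2a1: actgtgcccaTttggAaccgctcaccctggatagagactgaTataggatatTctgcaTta
Sult2a2: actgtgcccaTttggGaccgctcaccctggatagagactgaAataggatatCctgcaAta
Sult2a5: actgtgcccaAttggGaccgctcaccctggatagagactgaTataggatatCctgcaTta
Sult2a1 and Sult2a2 differed at 4 of these 60 bases. Over their aligned 472 coding bases they were 98.31% identical.

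Of the 63 genes, 41 were detected, meaning 1 TPM or more in each liver: 11 of 20 UGT, 11 of 21 SULT and 19 of 22 GST genes. Over all protein-coding genes 52.9% were detected. At 10 TPM or more in both livers stood 6 UGT, 5 SULT and 16 GST genes, 27 in all, against 25.9% of protein-coding genes. At 100 TPM or more stood 10 of the 63 genes (2 UGT, 2 SULT and 6 GST), against 4.57% of protein-coding genes. The GST family had the largest share of its genes above each of these thresholds, and the other families each had about as many genes below 1 TPM as above.

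All members together held 0.276% ± 0.0183 of TPM (SD, n = 2). GST genes summed to 1443 TPM in pup 1 and 1589 in pup 2, or 0.152% ± 0.0103 of the total. UGT genes summed to 686 and 679.8 TPM, or 0.0683% ± 0.000442. SULT genes summed to 503.4 and 622.4 TPM, or 0.0563% ± 0.00841. GST was the highest family in both livers and SULT the lowest in both. UGT transcripts are long, so in expected counts the UGT share was larger, 0.127% ± 0.0013, and close to the GST share of 0.131% ± 0.0125.

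**Figure D1:**
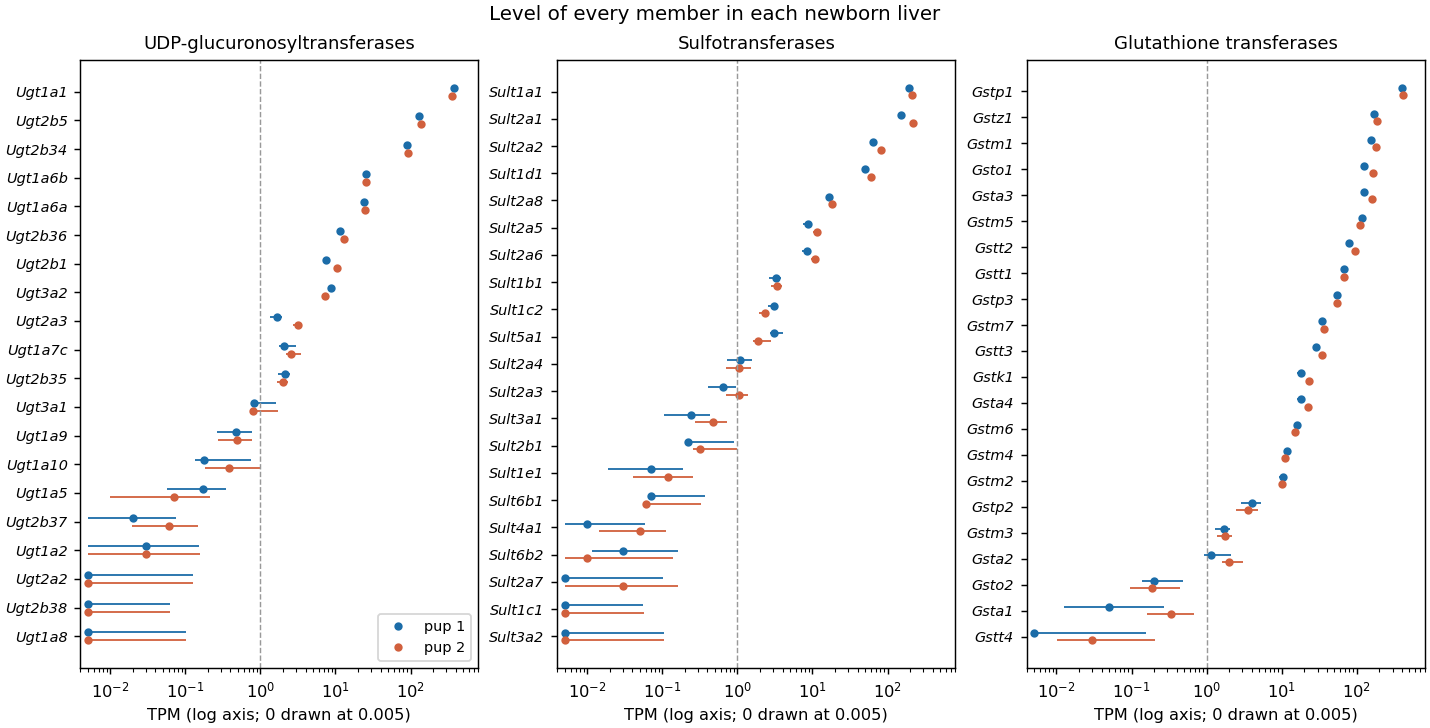
Level of every measured member in each liver, in TPM on a log axis (0 is drawn at 0.005), ordered by mean level within each family; horizontal lines are the authors' credible bounds and the dashed line marks 1 TPM. Ugt1a1, Sult1a1 and Gstp1 head their families, and 5 genes had 0 counts in both livers.

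Ugt1a1 (ENSMUSG00000089960.1, chromosome 1, 88211959 to 88218997), the enzyme that conjugates bilirubin, led the UGT family. It stood at 383.5 TPM in pup 1 and 358.9 in pup 2, a mean of 371.2 ± 17.3, and ranked 291 among protein-coding genes. It made up 88.0% of the Ugt1a TPM in pup 1 and 87.0% in pup 2. Ugt1a6a and Ugt1a6b, whose enzymes conjugate planar phenols, followed in this group. Ugt1a6a stood at 24.2 TPM in pup 1 and 24.8 in pup 2, and Ugt1a6b at 25.3 and 25.6 TPM. The order of these neighbours was not separated. The copies were 98.37% identical over 1593 coding bases, and both also share long stretches with Ugt1a7c and the other Ugt1a genes. The division of reads among them is uncertain. Ugt1a7c was detected at 2.05 and 2.54 TPM. The other Ugt1a genes stayed below 1 TPM in both livers, from Ugt1a9 at 0.48 and 0.49 TPM down to Ugt1a8 with 0 counts.

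The Ugt2 genes, which conjugate steroids, bile acids and many drugs, were led by Ugt2b5 (ENSMUSG00000054630.7, chromosome 5, 87124960 to 87140318). It stood at 128 TPM in pup 1 and 136.2 in pup 2. Ugt2b34 stood at 89.8 and 93.9 TPM, and Ugt2b36 at 11.5 and 13.1 TPM. The levels of Ugt1a1, Ugt2b5 and Ugt2b34 were ordered the same way in both livers with intervals that did not overlap. Ugt2b1 (7.59 and 10.4 TPM) and Ugt3a2 (8.64 and 7.25 TPM) changed places between the livers, so their order was not separated. Ugt3a enzymes differ from the rest of the family in using other sugar donors, as known from the human enzymes. By its mean the lowest detected UGT gene was Ugt2b35 at 2.12 and 2.02 TPM, not separated from Ugt1a7c, and in pup 1 Ugt2a3 (1.66 TPM) was lower. Ugt2b38, 97.04% identical to Ugt2b5 in coding sequence, had 0 counts in both livers, as had Ugt2a2. At these depths a count of 0 is compatible with as many as 3 counts, 0.0712 CPM (counts scaled to the library total) in pup 1 and 0.0724 CPM in pup 2, for counting error only.

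Sult1a1 (ENSMUSG00000030711.11, chromosome 7, 126672865 to 126676432), which sulfates phenols, had the highest mean of the SULT family, 201.9 ± 11.6 TPM, from 193.7 TPM in pup 1 and 210.1 in pup 2. Sult2a1 (ENSMUSG00000078798.4, chromosome 7, 13796246 to 13837409), a hydroxysteroid and bile acid sulfotransferase, stood at 149.2 and 218 TPM. It was below Sult1a1 in pup 1 and above it in pup 2, so the order at the head of the family was not the same in the littermates. Sult2a2 followed at 64.4 and 82.8 TPM. Sult1d1, which acts on catecholamines and other phenols in mice, stood at 50.8 and 59.8 TPM. Sult2a8, a bile acid sulfotransferase of mouse liver, stood at 16.5 and 18.5 TPM. From Sult2a1 down to Sult2a5 (8.78 and 11.5 TPM) each gene was separated from the next.

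The 8 Sult2a genes together gave 49.4% of SULT TPM in pup 1 and 55.3% in pup 2. Sult2a3 lay on either side of the detection threshold, at 0.65 TPM in pup 1 and 1.04 in pup 2. The lowest SULT gene detected in both livers was Sult2a4 at 1.08 and 1.04 TPM. Sult1e1, the oestrogen sulfotransferase, had 3 counts in pup 1 and 5 in pup 2. Sult1b1, whose enzyme sulfates thyroid hormone, stood at 3.25 and 3.40 TPM. Sult2b1, known for sulfating cholesterol, and Sult4a1, a gene of the brain, stayed below 1 TPM. Sult1c1 and Sult3a2 had 0 counts in both livers.

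Gstp1 (ENSMUSG00000060803.5, chromosome 19, 4035407 to 4037985), of the pi class, led the GST family and all 63 genes, at 405.1 TPM in pup 1 and 414 in pup 2, with rank 259 among protein-coding genes. Its neighbour Gstp3 stood at 54.6 and 55.0 TPM, while the near copy Gstp2 was given 4.02 and 3.51 TPM. Gstp1 made up 87.4% of the pi class in pup 1 and 87.6% in pup 2. Gstz1 (ENSMUSG00000021033.10, chromosome 12, 87147165 to 87164723), the maleylacetoacetate isomerase of tyrosine breakdown, came next at 170.7 and 184.8 TPM. Its order with Gstm1 was not separated.

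The 7 mu class genes were all detected. Gstm1 (ENSMUSG00000058135.8, chromosome 3, 108012255 to 108017973) stood at 156.3 TPM in pup 1 and 179.3 in pup 2. Gstm5 stood at 118.6 and 109.5 TPM, and Gstm7 at 34.2 and 36.6 TPM. These 3 genes led the class, and Gstm1 made up 44.8% of it in pup 1 and 49.3% in pup 2. The remaining mu genes ran from Gstm6 at 15.8 and 15.0 TPM through Gstm4 (11.8 and 11.2 TPM) and Gstm2 (10.3 and 10.2 TPM) to Gstm3 at 1.69 and 1.75 TPM.

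The alpha class was carried by Gsta3 (ENSMUSG00000025934.11, chromosome 1, 21240589 to 21265661), at 123.5 TPM in pup 1 and 160.4 in pup 2. Gsta4, whose enzyme conjugates the lipid peroxidation product 4-hydroxynonenal, stood at 17.9 and 22.7 TPM. Gsta1 and Gsta2, known as strongly inducible genes, were low: Gsta2, at 1.15 and 1.97 TPM, had the lowest mean of the detected GST genes, not separated from Gstm3, and Gsta1 had 1 count in pup 1 and 7.14 expected counts in pup 2, all given to a transcript annotated as a retained intron.

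Among the other classes, Gsto1 (ENSMUSG00000025068.7, chromosome 19, 47854970 to 47864790), an omega enzyme with dehydroascorbate reductase activity, stood at 124.2 and 162.6 TPM. The theta genes Gstt2, Gstt1 and Gstt3 stood in this order in both livers, Gstt2 at 79.2 and 93.7, Gstt1 at 67.6 and 68.3 and Gstt3 at 28.6 and 34.5 TPM. Gstk1, the kappa enzyme of mitochondria and peroxisomes, stood at 17.9 and 23.3 TPM. Gsto2 and Gstt4 stayed below 1 TPM. Along the whole order of levels, the higher gene of a neighbouring pair was separated from the lower in 24 of 60 pairs: 7 of 19 among UGT, 6 of 20 among SULT and 11 of 21 among GST genes. Here separated means higher in both livers with credible intervals apart in both.

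Most members lie near relatives: 54 of the 63 fall in 11 clusters of 2 or more genes with gaps of at most 500 kb, and 9 stand alone. The cluster with the most genes, 701.8 kb of chromosome 5, holds 9 Ugt2 and 3 Sult1 genes, of which 8 were detected. It was not used evenly. Ugt2b34 at one end, Ugt2b5 further in and Sult1d1 near the other end stood above 50 TPM in both livers. The genes of 0 counts, Ugt2b38 and Ugt2a2, lay between Ugt2b5 and Sult1d1, while those between Ugt2b34 and Ugt2b5 were detected. The 8 Sult2a genes span 870.3 kb of chromosome 7, and of its 3 leading genes Sult2a2 and Sult2a1 adjoin while Sult2a8 lies apart. The 7 mu class genes span 149.1 kb of chromosome 3.

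**Figure D2:**
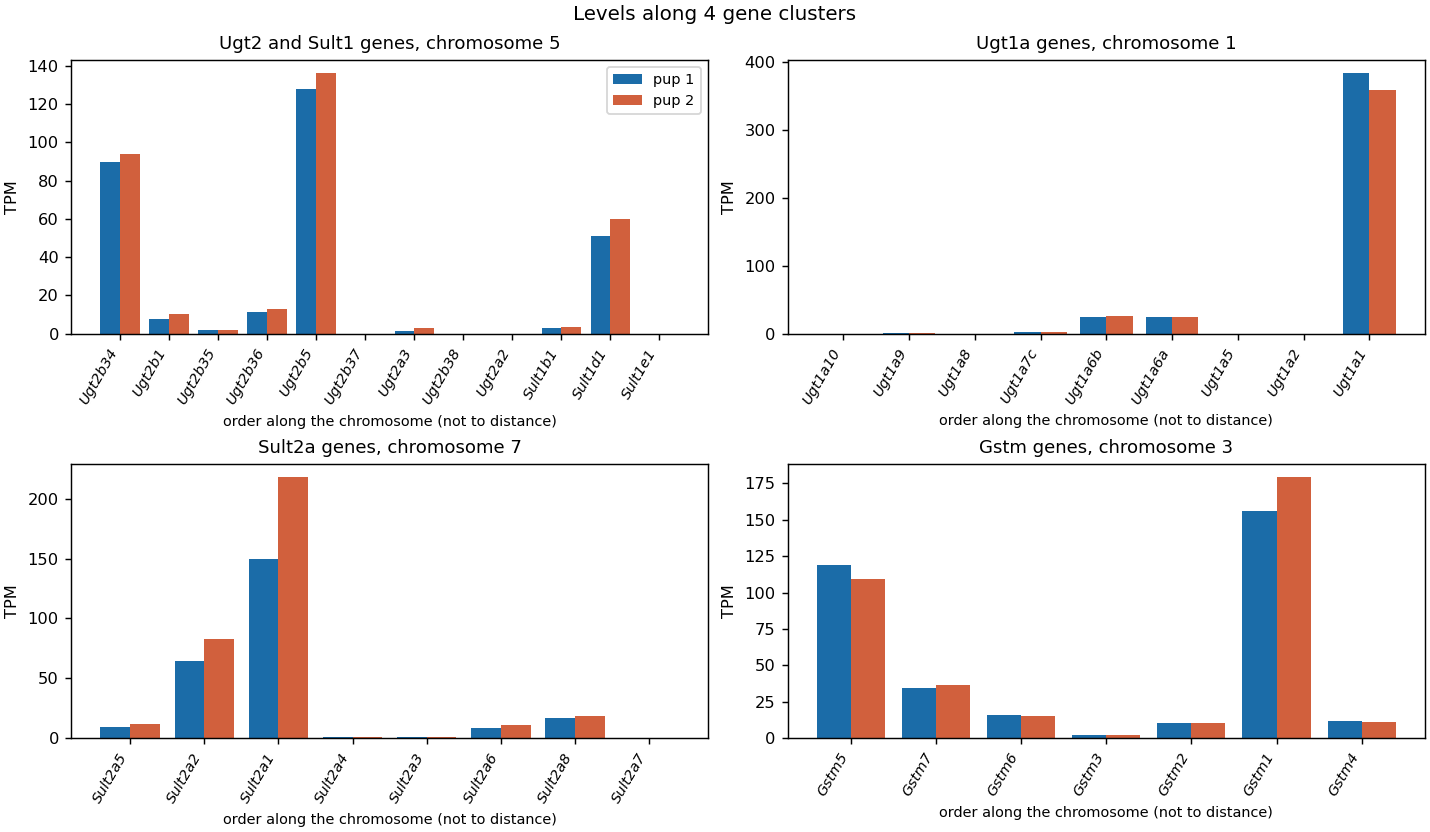
TPM of each gene in 4 clusters, in the order of the genes along the chromosome and not to distance; bars start at 0, 1 for each liver, and the vertical scales differ. Levels differ widely between neighbours, and the profile along each cluster has the same leading gene in both livers.

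The deposited tables give, for each gene, a posterior SD of the count, which covers only the division of reads among features. It was 0 for 70.3% of 11382 protein-coding genes of 100 or more counts in pup 1 and for 70.6% in pup 2. Divided by the square root of the count, so that 1 is the size of counting error, it was 1.34 and 1.41 for Ugt1a6a, 1.33 and 1.34 for Ugt1a6b, and 1.21 and 1.15 for Ugt1a7c. For Ugt1a1 it was 0.41 and 0.45. Read assignment therefore added as much uncertainty as counting for the low Ugt1a genes and less for the leading one.

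Shared sequence was widespread in the UGT family. Some 100-base stretch of the leading transcript recurred in another gene for 29 of the 62 members with a sequence: 15 of 20 UGT, 5 of 20 SULT and 9 of 22 GST genes. The share of such stretches was 100% for Ugt1a6a, 71.5% for Ugt1a6b, 57.2% for Ugt1a1, 52.8% for Gstp1 and 34.6% for Sult2a2. Gstp1 had a ratio of 0.13 and 0.14 despite this overlap, and Sult2a2 one of 0.45 and 0.44. The levels of Ugt1a6a, Ugt1a6b, Ugt1a7c and, to a smaller degree, Ugt1a1, Sult2a2 and Sult2a5 carry this uncertainty beside the spread between livers. The ratio was taken only at 100 or more counts. Below that, Gstp2 had a posterior SD of 11.52 and 11.57 on 96 and 84.26 counts. Ugt1a9 had one of 7.69 and 7.94 on 35.55 and 36.44 counts, so low copies outside the ratio carry this uncertainty too. The shares of stretches were computed on M21 transcripts, while the tables used GENCODE M4. The leading transcript had the same length in both for 53 of the 62 members. That of Gstp1 had 821 bases in M21 and 757 in M4.

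**Figure D3:**
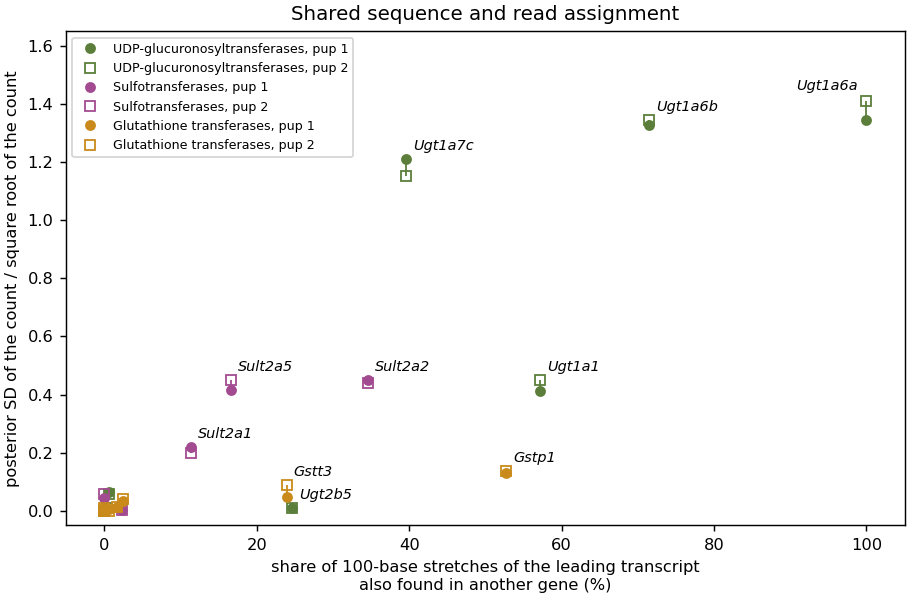
For members of 100 or more counts, the posterior SD of the count divided by the square root of the count (vertical axis) against the share of 100-base stretches of the leading transcript that occur in another gene (horizontal axis, %); each line joins the livers. Ugt1a6a, Ugt1a6b and Ugt1a7c lie above 1 in both livers, and Gstp1 lies at 0.13 and 0.14 with 52.8% shared.

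Of the 41 detected genes, 25 have at least 2 transcripts in the tables, and for 24 of these the same transcript led in both livers. The exception was Sult2a4, at about 1 TPM. Every leading transcript was protein-coding. Gsta3 was divided between transcripts, with Gsta3-201 at 58.3% of the gene's TPM in pup 1 and 59.2% in pup 2. Gstp3-202 held 52.4% in pup 1 and 84.6% in pup 2, while the gene's total differed little, at 54.6 and 55.0 TPM.

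Differences between the littermates are given as the log2 ratio of TPM + 1, with pup 2 over pup 1. For low genes the added 1 shrinks this ratio. None of the 41 genes was at least 2-fold apart with credible intervals apart, against 0.629% of 12711 Ensembl genes of mean TPM 1 or more (80 genes), of which 0.566% were higher and 0.0629% lower in pup 2. This is a rule of size for 1 library per animal, with no replicate check. Whether a liver had fewer cells of a type or less RNA per cell cannot be told apart in bulk tissue.

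Below that size, differences mostly ran one way. In TPM 30 of the 41 genes were higher in pup 2 (36.6% of all genes were), while scaling to the spike-ins, which rest on 163 and 190 counts, left 13 higher and 28 lower. Spike-in scaling moved the median log2 ratio of all genes from -0.05 to -0.26. Relative to the median of all genes, 33 of the 41 stood above it under each of TPM, TMM and spike-in scaling. Each scaling applies a single factor to a whole library, so members and median shift together. The equal counts are therefore not separate support. Credible intervals were apart for 19 genes higher in pup 2, against 6.27% of all genes, and for 3 lower in pup 2, against 13.8% of all genes. These 3 were Ugt1a1, Ugt3a2 and Gstm5. The intervals of the other 19 overlapped. The shares over all genes, here and below, were not matched for level, and intervals narrow as counts rise. Of the 41 genes 28 had a mean TPM of 10 or more, against 6005 of the 12711 Ensembl genes.

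In TPM the SULT genes stood furthest apart as a family. With spike-in scaling the UGT genes did, but that scaling also moved the median log2 ratio of all genes to -0.26. The summed SULT TPM in pup 2 was 1.24 times that in pup 1 (1.04 times with spike-in scaling). The median log2 ratio of the 11 detected SULT genes was 0.16, against -0.05 for all genes; it was 0.35 at a minimum mean of 5 TPM and -0.041 with spike-in scaling, where the median of all genes was -0.26. Sult2a1 differed most among genes of 10 TPM or more, at 1.46-fold (log2 ratio 0.54). Sult2a2 was 1.29-fold higher in pup 2 and Sult2a5 1.31-fold. The Sult2a genes summed to 248.9 TPM in pup 1 and 343.8 in pup 2, and 5 of the 6 detected were higher in pup 2 with intervals apart; with spike-in scaling 4 of 6 were higher. Sult5a1, at 3.07 and 1.89 TPM, and Sult1c2, at 3.04 and 2.32 TPM, stood lower in pup 2 with overlapping intervals.

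Among GST genes the median log2 ratio was 0.09 and the sum 1.10 times that of pup 1, and 0.929 times with spike-in scaling. Gsto1 (1.31-fold), Gsta3 (1.30-fold), Gstk1 (1.30-fold) and Gsta4 (1.27-fold) were higher in pup 2 with intervals apart. The pi class summed to 463.7 and 472.5 TPM, and the intervals of its 3 genes overlapped. The mu class summed to 348.8 and 363.6 TPM, with Gstm1 higher and Gstm5 lower in pup 2.

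In TPM the UGT sum was the closest between the livers, 0.991 times in pup 2, and with TMM scaling it was 1.04 times. With spike-in scaling it was 0.836 times and the furthest apart, where the median log2 ratio of all genes was -0.26. The median log2 ratio of UGT genes was 0.06 in TPM and -0.18 with spike-in scaling. Ugt2a3, an enzyme known in humans to conjugate bile acids, had the highest ratio of the 41 genes, 1.66 TPM in pup 1 and 3.19 in pup 2 (1.92-fold, log2 ratio 0.66). Ugt2b1 was 1.37-fold higher in pup 2 with intervals apart.

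For scale, log2 ratios of all genes of mean TPM 10 or more ran from -0.29 at the 5th percentile to 0.22 at the 95th. Of the 28 members at that level, 10 lay above the 95th percentile and 0 below the 5th. The 10 were Sult2a1, Gsto1, Gsta3, Gstk1, Sult2a2, Sult2a5, Gsta4, Gstt3, Gstt2 and Sult1d1. With the muscle and pancreas markers taken out of the TPM totals the median ratio of the 41 genes was 0.09, as before. In pup 2 these markers summed to 870.6 and 128.6 TPM of a total of 1000000. Taking them out could therefore hardly move the ratio, and it is no check on RNA from those organs. Whether cells of those organs carried RNA of the members was not tested. Of the 8 hepatocyte markers 3 were higher and 5 lower in pup 2, with a median log2 ratio of -0.12.

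**Figure D4:**
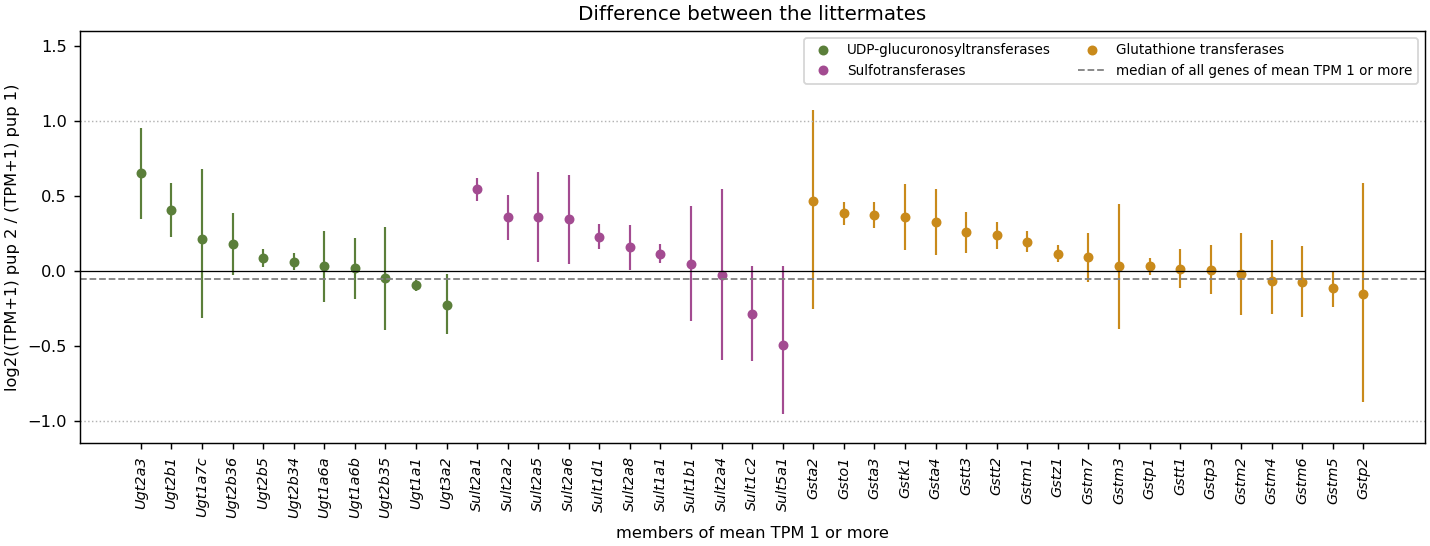
log2 ratio of TPM + 1, pup 2 over pup 1, for the 41 members of mean TPM 1 or more; lines run between the extremes that the credible bounds of the livers allow, the dashed line is the median of all genes (-0.05) and dotted lines mark 2-fold. In TPM 30 of 41 lie above 0 and none reaches 2-fold; with spike-in scaling 13 of 41 lie above 0.

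The promoters, 300 bases from 250 before to 50 after each start in RefSeq on GRCm38.p6, were found for 55 of the 63 members. The table had none for Gsta4, Gstt2, Sult2a1, Sult2a2, Sult2a7, Sult4a1, Ugt1a6b and Ugt3a2. A short motif of HNF1, a transcription factor of hepatocytes, was searched as GTTAAT on both strands, and the first promoter of each gene was counted. It occurred in 7 of 17 SULT promoters (41.2%), 6 of 18 UGT promoters (33.3%) and 1 of 20 GST promoters (5.0%), against 7.2% of 27025 promoters. TATAAA occurred in 41.2% of SULT, 11.1% of UGT and 15.0% of GST promoters, against 14.2% of all. SULT and UGT promoters were also poor in CG pairs, with medians of 1 and 2 per 300 bases, against 7 for GST genes and for all promoters, so base composition moves with these counts.

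The promoters of Sult2a5, Sult2a6 and Ugt1a1 are shown as examples among those that hold these letters close to the start. Each is printed on the strand of its gene, with GTTAAT (or ATTAAC, the same letters on the other strand) and TATAAA in capitals.
Sult2a5, chr7:13623717-13624016, plus strand: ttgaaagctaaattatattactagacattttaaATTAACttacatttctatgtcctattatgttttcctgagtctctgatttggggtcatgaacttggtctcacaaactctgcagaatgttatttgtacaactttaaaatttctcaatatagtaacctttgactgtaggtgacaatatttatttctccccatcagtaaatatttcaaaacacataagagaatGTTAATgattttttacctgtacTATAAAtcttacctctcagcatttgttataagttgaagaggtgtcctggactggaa
Sult2a6, chr7:14254821-14255120, minus strand: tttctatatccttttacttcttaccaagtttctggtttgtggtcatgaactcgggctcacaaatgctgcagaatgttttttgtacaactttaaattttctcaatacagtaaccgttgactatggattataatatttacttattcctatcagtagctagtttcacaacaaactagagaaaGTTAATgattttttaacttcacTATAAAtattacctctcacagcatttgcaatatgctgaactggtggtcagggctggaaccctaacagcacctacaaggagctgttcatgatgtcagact
Ugt1a1, chr1:88211709-88212008, plus strand: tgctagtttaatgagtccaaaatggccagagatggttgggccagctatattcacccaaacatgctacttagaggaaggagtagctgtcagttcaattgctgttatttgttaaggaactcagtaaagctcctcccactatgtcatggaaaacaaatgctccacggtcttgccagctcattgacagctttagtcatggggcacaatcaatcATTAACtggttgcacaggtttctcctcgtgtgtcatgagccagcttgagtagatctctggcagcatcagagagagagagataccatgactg
In Sult2a5 one GTTAAT began 28 bases before the annotated start and TATAAA 6 bases before it. In Sult2a6 they began 71 and 49 bases before the start, so both genes had the same 22-base spacing between the motifs. The Sult2a5 and Sult2a6 promoters were 62.8% identical when aligned. In Ugt1a1 the HNF1 motif lay on the other strand, 41 bases before the start. Among promoters not shown, it began at -50 from the start in Ugt1a6a, -51 in Sult2a3 and -54 and -47 in Ugt2a3. It also occurred in Ugt1a9, Ugt1a10, Ugt3a1 and Sult3a2, which stayed below 1 TPM in both livers. A match of letters is a description and not a measured site.

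The core of the antioxidant response element, bound by Nrf2, was searched as TGACNNNGC on both strands. It occurred in 2 of 20 GST promoters, those of Gsta3 and Gstm5, and in 0 of the SULT and UGT promoters, against 12.5% of all promoters, counting the first listed promoter of each gene. Gstm7 has the motif in another of its listed promoters, which was not counted.

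The genes that supply the cosubstrates were all detected for 2 of the 3 reactions. The 5 genes of UDP-glucuronic acid supply ran from Slc35d2 at 6.33 and 6.93 TPM to Ugp2, which makes UDP-glucose, at 77.1 and 80.7 TPM. Slc35b1 stood at 35.3 and 33.5 TPM, and Ugdh, which oxidises UDP-glucose to UDP-glucuronic acid, at 11.96 and 12.6 TPM. The intervals of all 5 overlapped between the livers.

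The 7 genes of PAPS supply ran from Papss1 at 4.85 and 4.90 TPM to a mean of 27.1 TPM for Papss2, the main PAPS synthase of liver, at 24.7 TPM in pup 1 and 29.6 in pup 2. Slc26a1, a sulfate carrier, stood at 29.2 and 22.5 TPM, and Slc35b2, a PAPS carrier of the Golgi, at 26.6 and 25.6 TPM. Papss2 was higher and Slc26a1 lower in pup 2 with intervals apart. For this list and those below, the shares over all genes were 6.27% higher and 13.8% lower.

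Of 13 genes of glutathione synthesis and turnover, 9 were detected. Gclm, the modifier subunit of glutamate-cysteine ligase, led at 237.3 and 254.3 TPM, followed by Gsr (64.4 and 61.0 TPM) and Chac2 (46.7 and 49.3 TPM). Those under 1 TPM in at least 1 liver were Dpep1, Ggt6, Chac1 and Ggt7, the lowest of the list at 0.21 and 0.20 TPM. Gclm was the 1 gene of the list with intervals apart, higher in pup 2.

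The microsomal Mgst1, which lies outside the rule for soluble enzymes, stood at 2385 TPM in pup 1 and 2551 in pup 2. The 63 members together summed to 2633 and 2891 TPM, so this single gene came close to their sum. Of the 10 genes listed as glutathione transferases and relatives outside the rule, 8 were detected. Mgst3 followed at 143.3 and 140.3 TPM and Eef1g, a translation factor subunit with a glutathione transferase-like domain, at 122.5 and 117.4 TPM. Ptgds, which was on the list but is not of the glutathione transferase family, was not detected in either liver. Gdap1 had a TPM of 0 in both.

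Of 17 other conjugating enzymes, 12 were detected, among them Acsm1 at 65.5 and 67.8 TPM and the tyrosylprotein sulfotransferase Tpst2 at 31.8 and 29.9 TPM. Hnmt, Ugt8a, Nnmt, Nat1 and Nat8 were not detected, Nat8 being lowest. With intervals apart, 1 gene of this list was higher in pup 2 and 1 lower; the higher was Inmt, a methyltransferase (8.61 and 16.3 TPM). Of 7 measured deconjugating genes 6 were detected, and all 6 stood lower in pup 2 in TPM, 2 of them with intervals apart. Lower is the common direction in TPM: 36.6% of all genes were higher in pup 2, and 13.8% were lower with intervals apart. Gusb, the glucuronidase of lysosomes, led at 25.4 and 22.5 TPM, followed by Arsg (11.6 and 10.3 TPM) and Sumf1 (11.4 and 10.5 TPM), and Kl was not detected.

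Of 8 efflux carriers of conjugates 6 were detected in both livers. Abcg2, which exports sulfates among other substrates, stood at 75.5 and 66.3 TPM, Abcb11, the bile salt export pump, at 65.7 and 64.9 TPM, and Abcc2, which carries bilirubin glucuronides into bile, at 32.6 and 32.8 TPM. Abcc4 was lowest at 1.03 and 0.86 TPM, and Abcc1 was also under 1 TPM in pup 2, at 0.97 TPM. Abcg2 and Abcc6 were lower in pup 2 with intervals apart, as were 13.8% of all genes.

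Of 20 regulators of conjugating enzymes 18 were detected, led by the nuclear receptor Ppara at 161.1 and 145.4 TPM, Nfe2l2 (Nrf2) at 51.6 and 51.8 TPM and the xenobiotic receptor Nr1i3 at 46.4 and 43.0 TPM. Esr1, at 0.92 and 1.22 TPM, reached 1 TPM in pup 2 alone, and Ahrr was not detected. Of the 19 regulators of mean TPM 1 or more, 2 were higher and 7 lower in pup 2 with intervals apart. Over all genes of that level 6.27% were higher and 13.8% lower in this way. The 2 were Cebpa (16.4 and 27.8 TPM) and Cebpb (24.1 and 38.0 TPM), named here after their values were seen. The 7 were Ahr (5.45 and 3.15 TPM), Nr3c1 (27.0 and 20.7 TPM), Nr1h4 (38.2 and 31.3 TPM), Keap1, Mafg, Mafk and Hnf4a, likewise. Of 17 Nrf2 target genes outside the members 15 were detected, led in mean level by Gclm, Taldo1 (219.6 and 203.8 TPM) and Hmox1 (136.8 and 132.0 TPM). In pup 2 Cbr1 (148.9 TPM) and Osgin1 (146.4 TPM) stood above Hmox1. Cbr3 and Slc7a11, the lowest, were not detected. In this list 3 genes were higher and 4 lower in pup 2 with intervals apart.

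**Figure D5:**
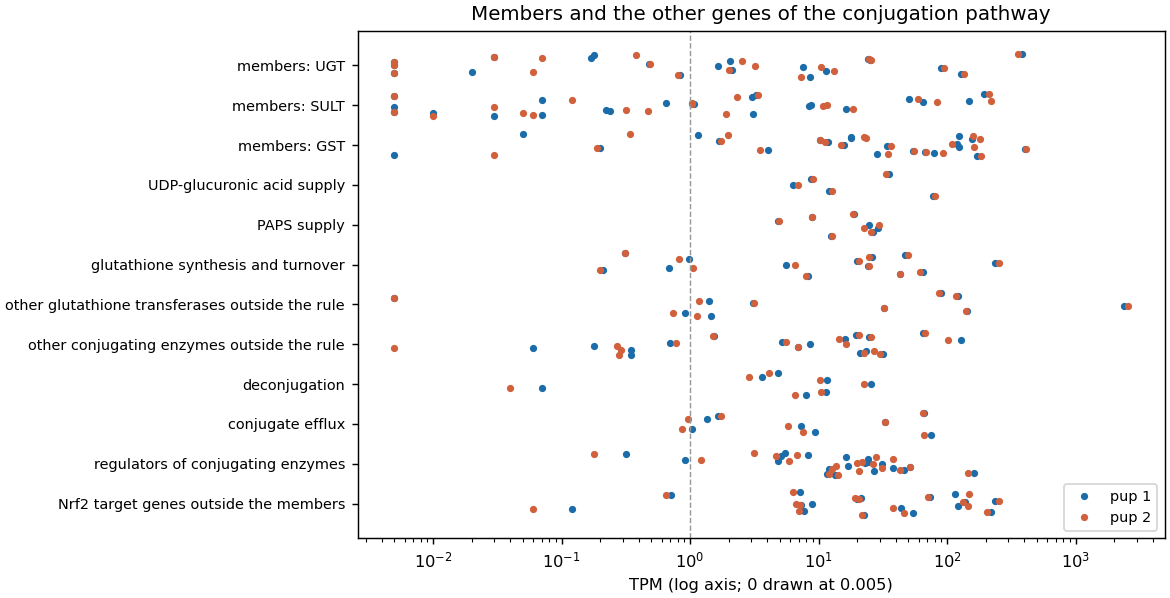
TPM in each liver (log axis, 0 drawn at 0.005, dashed line at 1 TPM) of the members by family and of the other genes of the pathway by list; each point is 1 gene in 1 liver. Mgst1, at 2385 and 2551 TPM, stands above every member, and the 5 genes of UDP-glucuronic acid supply lie between 6.33 and 80.7 TPM.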

How the data were processed

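RNA was measured in 1 library from each of 2 livers. Per the deposited notes the assembly was mm10 and the annotation GENCODE M4, in tables laid out as by RSEM; which aligner and counter made them is not given in the sources used here. The expected counts that the authors deposited are estimated counts, in which a read that fits more than 1 gene is split. The authors' TPM values are scaled to 1000000 over all rows after division by effective length, which is 99 nt less than length. The authors' FPKM values served as an alternative, and the percent of a gene's TPM per transcript was taken as deposited. The authors' credible bounds belong to a posterior mean TPM, with no level stated; the TPM of Ugt1a1 lies outside them in both livers. The labels say total RNA, while their protocols cite an oligo-dT cDNA kit, so the priming is unknown.

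Symbols, coordinates and transcripts came from GENCODE M21 (GRCm38, the same assembly as mm10), matched by Ensembl identifier. Identity was computed from coding sequence, in place of the planned protein sequence, by local alignment with Biopython 1.88. Members are named with values in each liver at a mean TPM of 10 or more, when lowest detected in a family, or when detected in 1 liver; list genes are the 3 highest, the lowest and those not detected. One list gene is not reported here. Other genes named were chosen after their values were seen. The symbol rule uses no values, but the gene group and the lists were chosen with earlier results of these data known. The pups are littermates, so an SD reflects 1 litter. Alternatives covered thresholds, units and scaling (edgeR 4.0.16 TMM in R 4.3.3 on rounded expected counts, and ERCC counts). The size rule was tested on simulated data with counting error only. The simulation held no uncertain read assignment and no spread between animals, so it does not cover these. Other steps used Python 3.11.15, pandas 2.3.3, numpy 2.4.6 and matplotlib 3.10.9.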

Additional observations from a re-analysis of the deposited data

How the results depend on the processing

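No paired analysis was possible because both livers belong to 1 group. The counts of detected genes stayed within 1.5 times under all 7 alternatives for UGT, GST and all members together and under 6 of 7 for SULT; a threshold of 5 TPM left 7 SULT genes. With either liver left out the count of all members was 41 or 42, the UGT share 0.0680% to 0.0686%, the SULT share 0.0503% to 0.0622% and the GST share 0.144% to 0.159%. The UGT share was 0.127% of expected counts, 0.0674% of posterior mean TPM and 0.0752% of protein-coding TPM; the GST share was 0.131% of expected counts and 0.167% of protein-coding TPM. These units weight length, low genes or the total differently by construction. At 1.5-fold, 1 member (Ugt2a3) was apart between the livers, and 22 had intervals apart at any fold, an alternative chosen after seeing the data; the other 8 alternatives gave 0. Spike-in scaling reversed the median log2 ratios, to -0.13 for all members, -0.18 for UGT, -0.041 for SULT and -0.13 for GST. It multiplies all of pup 2 by 1 factor, resting on 163 and 190 spike-in counts, and moved the median of all genes to -0.26. Why the spike-in counts differed was not tested. The SULT median was 0.35 at a minimum mean of 5 TPM, where fewer genes enter, and 0.26 with TMM-scaled CPM. Of the 28 named members, posterior mean TPM moved 4 by more than the SD of the livers and FPKM moved 21, since it has another total; the summed transcript TPM moved 0. Low genes are limited by depth, and Ugt1a6a, Ugt1a6b and Ugt1a7c also by read assignment, as are low copies such as Gstp2 and Ugt1a9.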

Other observations

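Pseudogenes and some other relatives of the members fall outside the rule. The processed pseudogene Gstp-ps on chromosome 1, which shares 100-base stretches with Gstp1 and Gstp2, was given 4.36 TPM in pup 1 and 4.64 TPM in pup 2, about the level given to Gstp2 (4.02 and 3.51 TPM). The pseudogenes Sult2a-ps1 and Sult2a-ps2 were given 4 and 6 counts in pup 1 and 5 and 7 in pup 2, while Sult2a-ps3 and Sult2a-ps4 had 0. Gstcd, a protein-coding relative named for a GST domain, stood at 1.41 and 1.17 TPM, and Ugt8a, which makes galactosylceramide in myelin-forming cells, at 0.35 and 0.28 TPM.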
